A study of Mus musculus with 11 samples.

Results

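The genes described here are 9 homeobox genes, most of them, though not *Barx1*, best known from sensory organs, cranial and dorsal sensory neurons and the hindbrain: *Hmx1*, *Hmx2*, *Hmx3*, *Tlx1*, *Tlx3*, *Lbx1*, *Barhl1*, *Barhl2* and *Barx1*. They were chosen by name, not by a measured value, though with earlier results of these data known. They make up 9 of the 21755 protein-coding genes of the annotation, and all 9 were found. For each gene, the bases of its body and of 10 kb on either side (the window) that lay under H3K27me3 peaks were counted in mm10 (GRCm38) coordinates. H3K27me3 had been profiled by CUT&Tag, in which an antibody-tethered transposase cuts and tags DNA beside the mark, in nuclei of the cortex (CTX) and of the 3 ganglionic eminences, the lateral (LGE), the medial (MGE) and the caudal (CGE), of wild-type C57BL/6J mouse embryos. The labels hold 2 samples of MGE and 3 each of CGE, LGE and CTX, 11 in all. In CGE, LGE and CTX, 2 of the 3 share a replicate number and may be 1 biological replicate, in which case each region had 2. The protocol in the labels names embryos of E12.5 and E14.5 without tying an age to a sample, and the study's text places this assay at E12.5. No sample carried a mutation or treatment, and each was dissected tissue holding progenitors and neurons together.

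Peaks had been called on the pooled reads of each region, so a region was represented by 1 list, no replicate error could be computed, and no test or p-value accompanies any value given here. A difference between regions is therefore a difference between 4 merged lists. In dissected tissue, fewer cells carrying a mark and less mark per cell cannot be told apart. The lists held between 15384 peaks (MGE) and 19196 peaks (CGE) and covered between 24.5 Mb (MGE) and 32.9 Mb (CGE), and they carry no read counts per peak. The caller also joined neighbouring peaks over different distances: the smallest gap left between peaks was 1154 bases (MGE), 1247 (CGE), 1119 (LGE) and 1230 (CTX). Of 7 genes known to be restricted to 1 or more of these regions, 6 were least covered in a region where they are known to be used. *Emx1*, *Neurog2* and *Lhx2*, cortical regulators, had 14.7%, 22.9% and 13.9% of their windows covered in CTX and at least 25.3%, 41.1% and 17.5% in the eminences. *Nkx2-1*, the MGE regulator, had 42.7% in MGE and 50.3% to 54.3% elsewhere, and *Nr2f2* had 28.7% in CGE and 33.9% to 36.4% elsewhere. The study places *Nr2f2* in progenitors of the caudal MGE as well, yet its coverage was highest in MGE (36.4%). Its 5′ end was under a peak in MGE alone. *Dlx2*, a gene of all 3 eminences, had 41.9% (MGE), 48.6% (CGE) and 45.0% (LGE) there and 49.1% in CTX, so CGE and CTX were nearly equal. The exception was *Lhx6*, an MGE gene that was lowest in LGE (26.8%) and at 29.9% in MGE.

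H3K27me3 is written by Polycomb repressive complex 2 and is known for broad domains over silent developmental regulators, many of which have CpG-rich promoters. In the embryonic brain, genes of lineages other than the one in question commonly carry it. The HMX factors act in the developing inner ear, eye and cranial sensory ganglia, and *Hmx2* and *Hmx3* also in the hypothalamus. TLX1 and TLX3 select the excitatory fate of dorsal spinal cord and hindbrain sensory interneurons, TLX1 also being needed for the spleen, and LBX1 selects the inhibitory fate of related interneurons and acts in migrating limb muscle precursors. BARHL1 is needed by cochlear hair cells and is found in cerebellar granule cell precursors, BARHL2 acts in retinal and dorsal spinal cord neurons, and BARX1 acts in stomach and tooth mesenchyme.

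Before the values, 4 upstream sequences show how unlike each other the starts of these genes are. The RefSeq promoter table (GRCm38.p6) matched 8 of the 9 genes, with no entry for *Lbx1*. The 250 bases before the RefSeq start are printed 5′ to 3′ on the gene's strand, with every CpG dinucleotide in capitals, for the gene with the widest domain (*Hmx1*), the gene with a CpG-poor start (*Hmx2*), the gene whose start was bare in 1 list (*Barhl1*) and the gene whose start was bare in all 4 lists (*Barhl2*). They lie at chr5:35388611-35388860 on the plus strand (*Hmx1*), chr7:131548507-131548756 on the plus strand (*Hmx2*), chr2:28916669-28916918 on the minus strand (*Barhl1*) and chr5:106458167-106458416 on the minus strand (*Barhl2*), and none holds an annotated transcript start.
Hmx1: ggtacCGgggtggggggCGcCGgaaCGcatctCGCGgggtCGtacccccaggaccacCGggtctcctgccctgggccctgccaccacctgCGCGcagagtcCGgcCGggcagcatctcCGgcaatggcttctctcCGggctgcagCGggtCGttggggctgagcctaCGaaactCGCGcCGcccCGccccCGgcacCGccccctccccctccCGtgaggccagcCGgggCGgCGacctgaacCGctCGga
Hmx2: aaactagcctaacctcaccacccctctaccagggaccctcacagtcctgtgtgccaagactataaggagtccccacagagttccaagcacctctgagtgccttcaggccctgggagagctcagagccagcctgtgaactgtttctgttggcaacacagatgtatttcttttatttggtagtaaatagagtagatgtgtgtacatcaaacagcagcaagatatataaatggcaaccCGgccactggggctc
Barhl1: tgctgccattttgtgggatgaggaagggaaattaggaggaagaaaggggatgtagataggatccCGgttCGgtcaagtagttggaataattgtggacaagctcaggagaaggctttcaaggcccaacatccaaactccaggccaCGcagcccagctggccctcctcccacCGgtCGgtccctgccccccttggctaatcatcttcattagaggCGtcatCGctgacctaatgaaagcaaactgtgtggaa
Barhl2: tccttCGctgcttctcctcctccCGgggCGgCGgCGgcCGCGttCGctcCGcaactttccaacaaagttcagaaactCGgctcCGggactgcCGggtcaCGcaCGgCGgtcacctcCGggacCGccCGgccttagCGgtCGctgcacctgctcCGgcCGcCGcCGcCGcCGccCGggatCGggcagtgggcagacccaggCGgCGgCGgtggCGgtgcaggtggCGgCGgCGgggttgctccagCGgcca

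The *Hmx1* stretch held 29 CpG and lay wholly under a peak in all 4 lists. The *Hmx2* stretch held 1 CpG and was also wholly covered in all 4 lists. *Barhl1* had 7 CpG there, covered over its full length in MGE, CGE and LGE and at no base in CTX. *Barhl2* had the most of the 4, 36 CpG, and not 1 of its bases was under a peak in any list. Over the table's 32851 promoters the median was 6 CpG and 92.1% held at least 1, which put *Barhl2* at percentile 97.8, *Hmx1* at 94.1, *Barhl1* at 57.0 and *Hmx2* at 18.8. The other matched genes, *Barx1* (40 CpG), *Hmx3* (31), *Tlx1* (15) and *Tlx3* (13), were wholly covered there in all 4 lists, except that *Tlx1* had 38.8% in LGE.

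All 9 genes were broadly covered in all 4 regions. Every window had at least 20% of its bases under peaks in each list, which was true of 2.27% (MGE), 3.16% (CGE), 2.53% (LGE) and 2.58% (CTX) of all protein-coding genes, of 1.89% (412 genes) in all 4 lists at once, and of 3.53% (767 genes) in at least 1 list. The median coverage of the 9 windows was 56.9% (MGE), 57.0% (CGE), 52.0% (LGE) and 57.0% (CTX). The median over all genes was 0 in each list, and the 99th percentile of all genes lay between 31.8% (CTX) and 35.4% (CGE). The lowest value of any of the 9 genes, 33.9% for *Barhl1* in CTX, was above the CTX percentile. Ranked by mean coverage over the lists among all 21755 genes, *Lbx1* was number 10 and *Hmx1* number 11, and the lowest of the 9, *Barhl1*, was number 124.

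**Figure D1:**
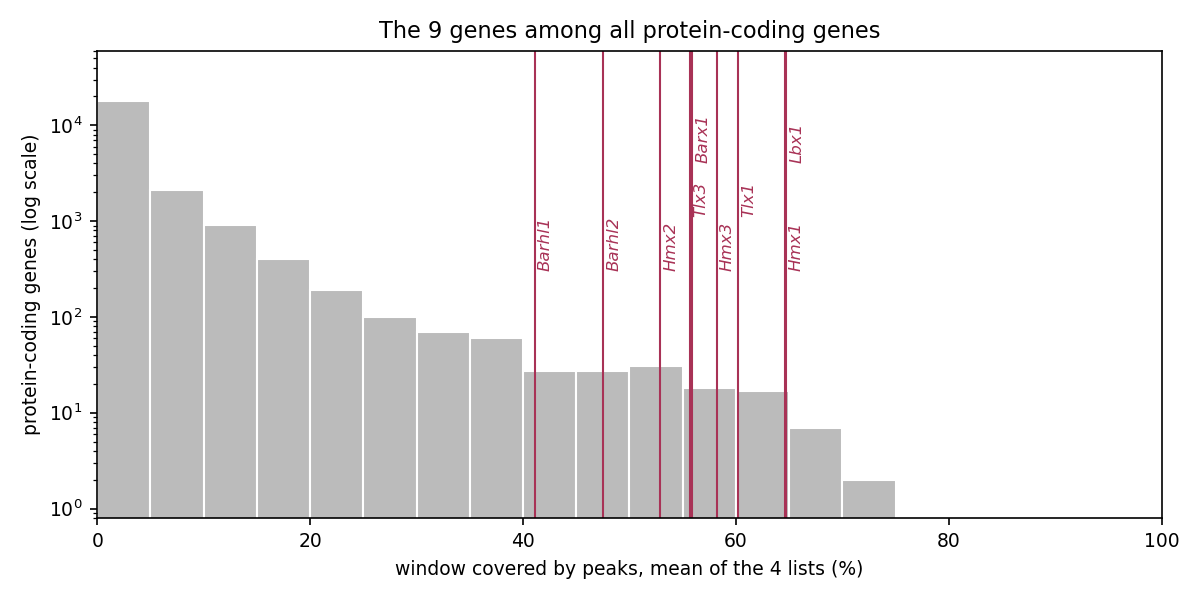
Number of protein-coding genes (log axis) by mean percent of the window covered over the 4 lists, in 5-point bins, with a line for each of the 9 genes. The 9 lines stand between 41.1% (*Barhl1*) and 64.7% (*Lbx1*), in the sparse right end of the distribution.

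**Figure D2:**
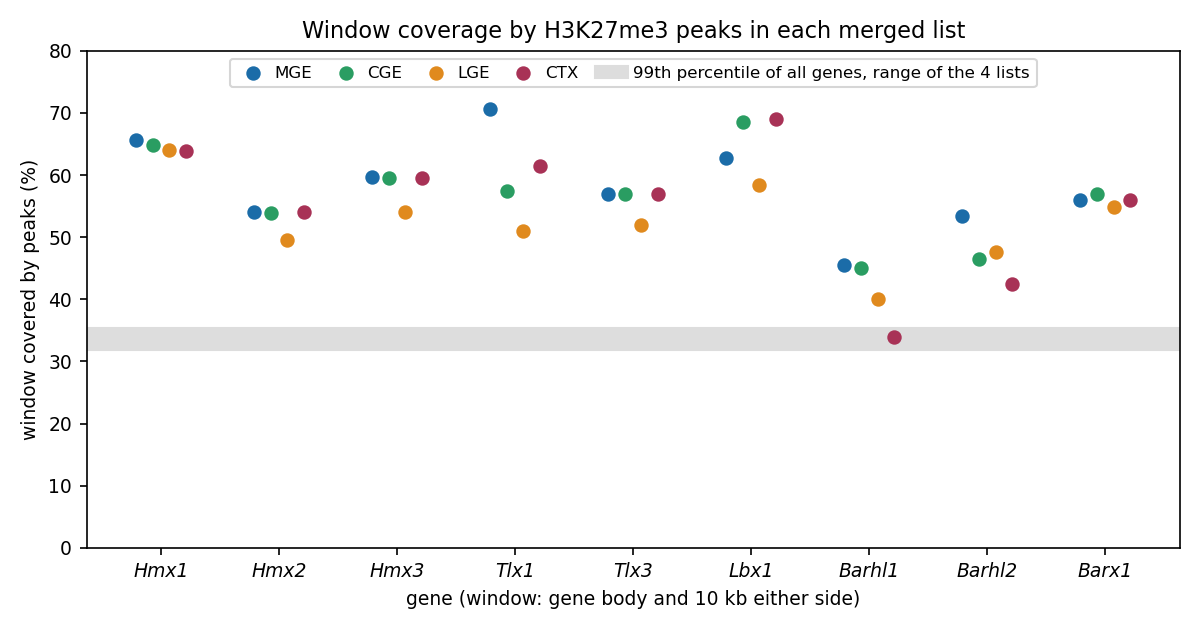
Percent of each gene's window under H3K27me3 peaks in MGE, CGE, LGE and CTX, 1 point per merged list, with the grey band marking the 99th percentile of all protein-coding genes. Points of *Hmx1* and *Barx1* nearly coincide, while those of *Tlx1* spread from 51.0% to 70.7%.

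A peak over the annotated 5′ end of the gene was present for 8 of the 9 genes in MGE, CGE and LGE and for 7 in CTX. Among all protein-coding genes, the same held for 19.2%, 20.9%, 20.8% and 22.8% in these lists. The gene missing from all lists was *Barhl2*, and the one missing in addition from CTX was *Barhl1*. A peak of at least 5 kb touched the window of 8 genes in MGE, CGE and CTX and of 6 in LGE, against 1.77% (MGE), 2.22% (CGE), 1.61% (LGE) and 1.87% (CTX) of all genes. In all 4 lists at once it was 6 of the 9 genes, against 1.08% of all genes. *Hmx3* was counted here through the domain of its neighbour *Hmx2*, the peak over its own start being 4380 to 4442 bases wide. Over the gene body alone the counts were 7 (MGE), 5 (CGE), 5 (LGE) and 5 (CTX).

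These domains were wide rather than steep. Over the widest peak of each gene, the authors' fold enrichment ran from 1.47 to 2.05, at or below percentile 9.55 of the peaks of its list, while the −log10 q ran from 11.0 to 63.0 and stood at or above percentile 77.1. Peaks of at least 5 kb in general had this profile, with a median fold percentile of 4.15 (MGE), 5.01 (CGE), 5.79 (LGE) and 5.67 (CTX). MACS gives 1 mean value over a broad peak, so a wide domain is not described by its summit.

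The HMX genes held the widest domain of 3 of the lists and a locus shared by a pair of genes. *Hmx1* (chr5:35389108-35399730, plus strand) had the least variable coverage of the 9 genes as deposited, at 65.6% (MGE), 64.9% (CGE), 64.1% (LGE) and 63.9% (CTX). Its domain ran from 7623 bases upstream of the 5′ end to 11105 downstream in MGE, 18729 bases without a break, and was the widest peak of the whole list. In LGE (18268 bases) and CTX (18276 bases) it was likewise the widest of the list, and both lists placed its upstream edge at the same base, 7326 bases before the 5′ end. In CGE a gap of 1247 bases split it into 10558 and 7714 bases, and that gap was exactly the smallest in the CGE list. With gaps of up to 1247 bases closed in every list, a setting added after the data were seen, the CGE domain measured 19519 bases, beside 18729, 18268 and 18276 in the others. The CGE coverage was then 68.9% and the range over the lists 4.99 points in place of 1.67, wider than for *Hmx2*, *Hmx3*, *Tlx3* and *Barx1*, and with peaks under 3 kb apart joined it was 9.36 points. The long non-coding RNA *E130018O15Rik*, which starts 632 bases upstream of *Hmx1* on the other strand, had its 5′ end inside the domain in all 4 lists. Inside the domain, the unclassified transcript *Gm43377* also started under the peak in all 4 lists, and *4930442P19Rik* in all but CGE, where the gap fell on its 5′ end.

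*Hmx3* (chr7:131542867-131544925) and *Hmx2* (chr7:131548773-131558014) lie head to tail on the plus strand, with 5′ ends 5906 bases apart, and their windows share 16153 bases, so their values are not independent. *Hmx2* was covered by 54.0% (MGE), 53.9% (CGE), 49.6% (LGE) and 54.0% (CTX). The *Hmx3* window had 59.7%, 59.6%, 54.0% and 59.6% in the same order. Both genes were lowest in LGE, while the other 3 lists were nearly equal.

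The pair held 2 domains at nearly the same positions in every list. A domain of 4380 to 4442 bases covered the start of *Hmx3*, beginning 2598 to 2685 bases upstream of it. A second began 2548 to 2580 bases upstream of the *Hmx2* start and ended 8760 to 8791 bases downstream. That second domain was 11359 bases wide in MGE, 11339 in CGE and 11340 in CTX, number 16 by width in each of those lists. In LGE a gap of 1182 bases left pieces of 3665 and 6464 bases, and closing gaps of up to 1247 bases gave 11311. *Bub3*, a mitotic checkpoint gene whose 5′ end lies 11449 bases beyond the *Hmx2* start, had no covered base in its body in any list.

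The TLX genes differed from each other. *Tlx3* (chr11:33200752-33203589, minus strand) was covered by 56.9% (MGE), 57.0% (CGE), 52.0% (LGE) and 57.0% (CTX). A domain of 12990 bases in MGE, 13017 in CGE and 13010 in CTX held the whole gene. Its upstream edge stood at 2677 bases before the 5′ end in CGE, LGE and CTX alike, and at 2672 in MGE. In LGE the domain was cut 8480 bases downstream by a gap of 1123 bases, leaving 11157 bases, and with gaps of up to 1247 bases closed it measured 12995. The non-coding *Gm12116*, starting 466 bases upstream on the other strand, had its 5′ end under the peak in all 4 lists.

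*Tlx1* (chr19:45150680-45156943, plus strand) varied most among the 9 genes. Its window was covered by 70.7% (MGE), 57.4% (CGE), 51.0% (LGE) and 61.5% (CTX), a range of 19.6 points. Over the gene itself the lists were alike, with a peak of 3454 to 3799 bases across the 5′ end in each. The difference lay downstream, where MGE had 1 peak from 4788 to 10638 bases after the 5′ end, 5851 bases wide. CGE held 2 separate peaks of 1360 and 1235 bases over that stretch, LGE 2 of 1367 and 1217 bases, and CTX 2 of 2279 and 1748 bases. The MGE peak had a low fold enrichment of 1.50 and a −log10 q of 9.98. Upstream, a domain of 6378 bases in MGE, 6441 in CGE and 6180 in CTX was split in LGE by 1204 bases, and with gaps of up to 1247 bases closed LGE stood at 55.6% and the range at 15.0 points. With peaks under 3 kb apart joined the range was 1.79 points. That setting fills the gaps of 2805 (CGE), 2810 (LGE) and 1351 bases (CTX) under the MGE peak by construction. The smaller range therefore does not tell what the difference was.

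The antisense transcript *Tlx1os* starts in the downstream stretch, 8624 bases from the *Tlx1* start. Its 5′ end was under a peak in MGE and CTX and not in CGE or LGE, and 73.9%, 25.9%, 26.3% and 47.2% of its body were covered in MGE, CGE, LGE and CTX. The protein-coding genes whose 4 values were nearest to those of *Tlx1*, by the sum of absolute differences over the 4 lists, were *Hoxb3* (6.07 points), *Neurod2* (10.3 points) and *Hoxd8* (12.1 points). *Hoxb3* stood at 70.7%, 61.0%, 53.3% and 61.7% in MGE, CGE, LGE and CTX.

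*Lbx1* (chr19:45232684-45235812, minus strand) lies 75740 bases from *Tlx1*. Of the 55740 bases between the windows of both genes, only 3.69% (MGE), 3.89% (CGE), 3.21% (LGE) and 3.71% (CTX) were covered, so the genes carried separate domains. *Lbx1* itself was covered by 62.8% (MGE), 68.5% (CGE), 58.4% (LGE) and 69.0% (CTX). A peak of 4577 to 4799 bases lay over the 5′ end in all 4 lists, and a small peak of 332 to 427 bases followed in each. Farther downstream CGE and CTX had a single domain of 7936 and 8100 bases. MGE and LGE had that stretch in 2 pieces, of 3691 and 3169 bases in MGE and of 3797 and 1887 bases in LGE. With gaps of up to 1247 bases closed, the coverage was 68.2%, 68.5%, 63.3% and 69.0% in MGE, CGE, LGE and CTX, and the range went from 10.6 to 5.65 points.

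**Figure D3:**
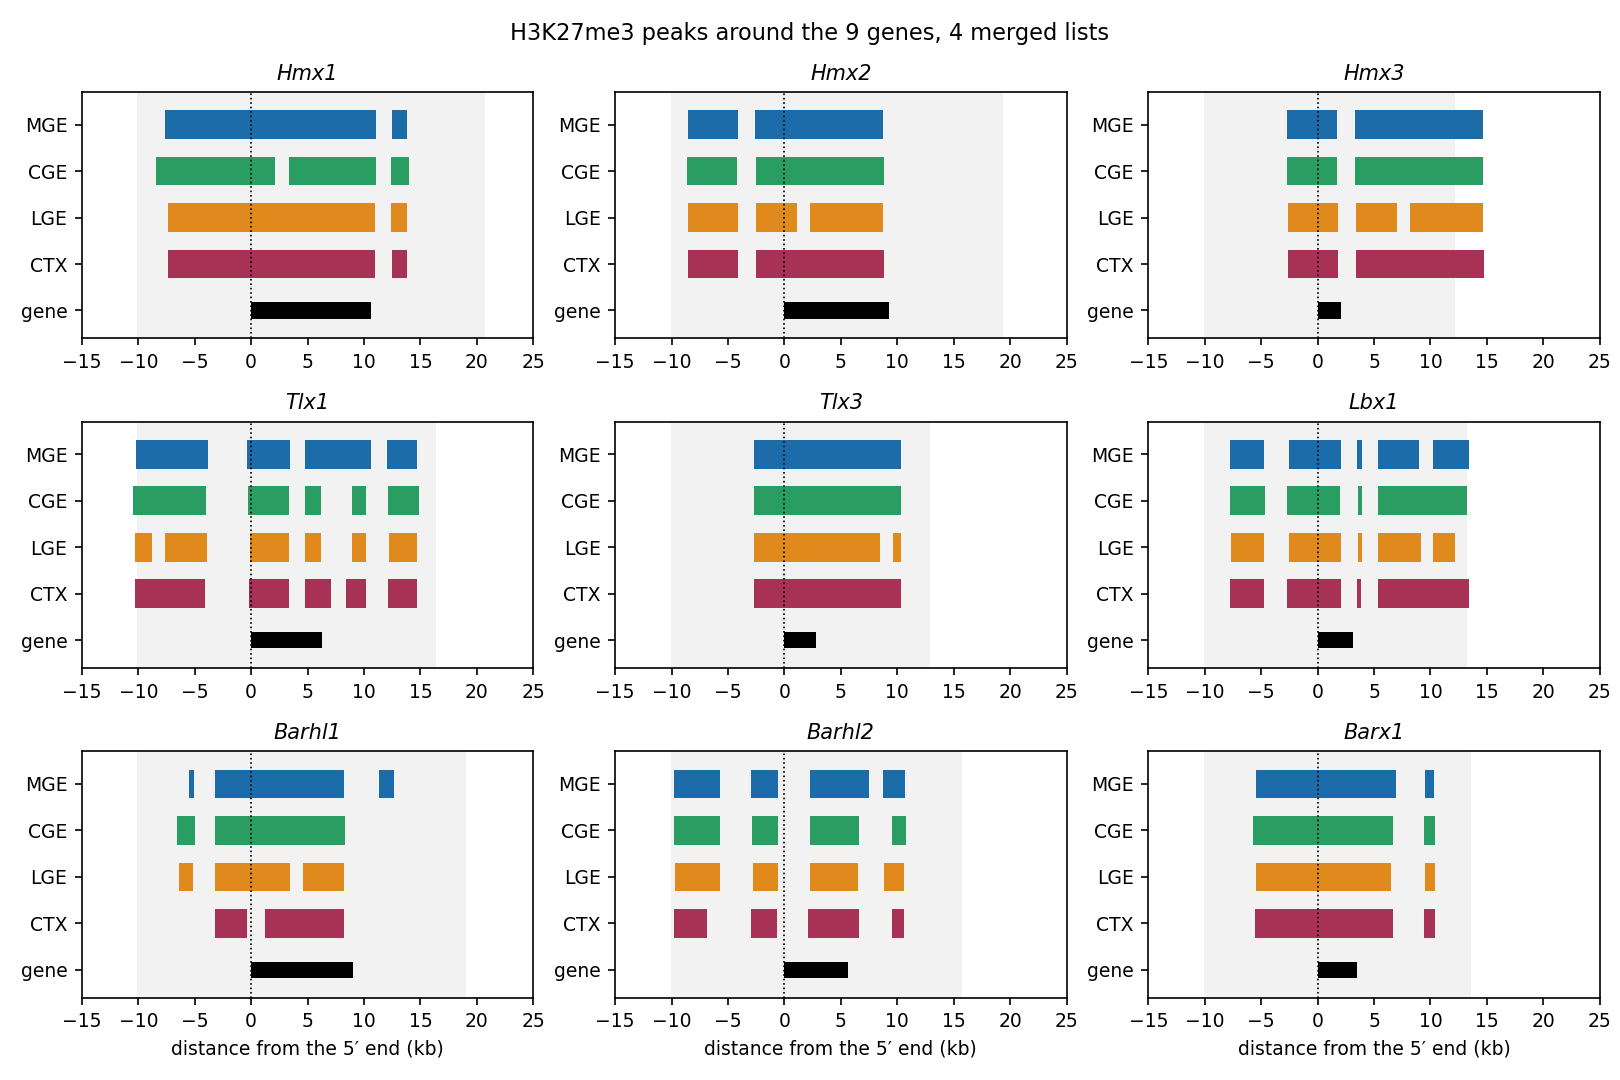
H3K27me3 peaks of MGE, CGE, LGE and CTX (coloured bars, 1 row per list) over the window (grey) of each gene, by distance from its annotated 5′ end in kb, with the gene as a black bar. *Barhl2* shows an open gap of 2746 to 2840 bases across its 5′ end in every row, and *Barhl1* one of 1638 bases in the CTX row only.

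The BARHL genes were the least covered of the 9 and were lowest in CTX. *Barhl1* (chr2:28907679-28916668, minus strand) was covered by 45.5% (MGE), 45.0% (CGE), 40.0% (LGE) and 33.9% (CTX). A domain beginning 3171 to 3231 bases upstream held its 5′ end in MGE (11408 bases), CGE (11485 bases) and LGE (6680 bases). In CTX the 5′ end lay in a gap of 1638 bases, from 404 bases upstream to 1233 downstream (chr2:28915435-28917072), with a peak of 2815 bases before it and one of 7008 after it. That gap was wider than the smallest gap of each list, and it stayed with q under 0.001, with lists cut to 1 length or to 1 number of covered bases and with gaps of up to 1247 bases closed. It closed with peaks under 3 kb apart joined. Of the 5 annotated transcript starts of *Barhl1*, the first 4 fell in the CTX gap, and the last, 4173 bases downstream, was bare in LGE and covered in the other 3 lists.

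A bare 5′ end in CTX together with a covered one in the 3 eminences was seen in 10 of the 412 genes with at least 20% of the window covered in all 4 lists, or 2.43%. CTX also lacked a peak that lay more than 5 kb before the *Barhl1* 5′ end, of 1562 bases in CGE, 1222 in LGE and 421 in MGE. It was a weak call, with fold enrichment of 1.32 (CGE), 1.42 (LGE) and 1.33 (MGE). Its −log10 q was 3.03, 3.49 and 1.41 in the same order, and the MGE peak was lost with q under 0.001. With peaks under 3 kb apart joined, *Barhl1* stood at 52.0%, 51.3%, 50.6% and 39.5% in MGE, CGE, LGE and CTX.

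*Barhl2* (chr5:106452523-106458166, minus strand) was covered by 53.4% (MGE), 46.5% (CGE), 47.6% (LGE) and 42.5% (CTX). Its 5′ end was bare in all 4 lists, in a gap of 2823 bases (MGE), 2798 (CGE), 2840 (LGE) and 2746 (CTX). The gap began 547 to 644 bases upstream and ended 2101 to 2292 bases downstream, and peaks flanked it on both sides in every list. Of the 412 genes with at least 20% coverage in all 4 lists, 94 (22.8%) had a bare 5′ end in each, so this arrangement was not rare. The peak after the gap measured 5198 bases (MGE), 4372 (CGE), 4231 (LGE) and 4505 (CTX). A domain farther upstream ended at position −5718 to −5726 from the 5′ end in the eminences and at −6847 in CTX. *Barhl2* remained lowest in CTX with gaps of up to 1247 bases closed (58.3%, 46.5%, 47.6% and 42.5%) and with peaks under 3 kb apart joined (80.6%, 80.9%, 80.4% and 64.5%).

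*Barx1* (chr13:48662998-48666507, plus strand) was covered by 55.9% (MGE), 56.9% (CGE), 54.8% (LGE) and 56.0% (CTX), a range of 2.15 points. A single domain held the whole gene, of 12377 bases (MGE), 12411 (CGE), 11987 (LGE) and 12234 (CTX), and it was number 7 to 12 by width in these lists. A second, short peak of 761 to 967 bases began 9454 to 9544 bases downstream in all 4 lists. Of the bases of this window covered in any list, 93.4% were covered in all 4, the highest share of the 9 genes.

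**Figure D4:**
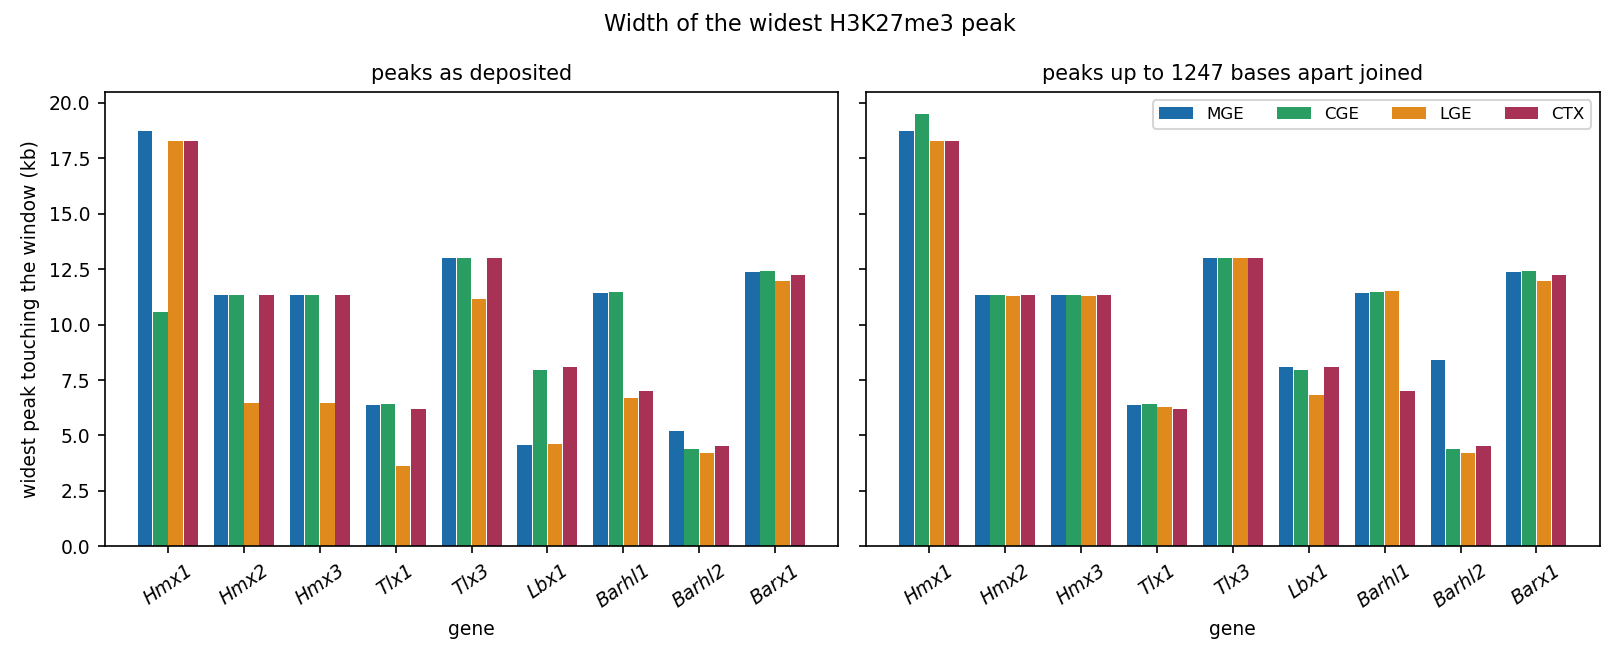
Width in bases of the widest peak touching each gene's window in MGE, CGE, LGE and CTX, as deposited (left) and with gaps of up to 1247 bases closed in every list (right). *Hmx2* and *Hmx3* share 1 domain, whose LGE bar is 6464 bases as deposited and 11311 after closing.

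Compared over pairs of regions, few of the genes differed by 10 points or more. MGE and CGE differed so for 1 gene (*Tlx1*, 13.3 points higher in MGE), against 0.869% of all genes and, of the 767 genes with at least 20% coverage in 1 or more lists, 107. MGE and LGE differed for *Tlx1* (19.6 points higher in MGE), against 0.423% of all genes and 60 of the 767. MGE and CTX differed for *Barhl1* (11.6 points) and *Barhl2* (10.9 points), both higher in MGE, against 0.809% and 102. With q under 0.001 the *Barhl1* difference was lost, at 39.4% in MGE against 33.9% in CTX. CGE and LGE differed for *Lbx1* (10.1 points higher in CGE), against 0.492% and 63, a call lost with 1 number of covered bases (67.0% against 58.4%) and with either joining. CGE and CTX differed for *Barhl1* (11.1 points higher in CGE), against 0.850% and 111. With 1 number of covered bases that call was lost as well, at 39.6% in CGE against 33.9% in CTX. LGE and CTX differed for *Tlx1* and *Lbx1*, each higher in CTX (61.5% against 51.0% and 69.0% against 58.4%), beside 0.565% and 86. Both were lost with either joining, and with peaks under 3 kb apart joined the *Tlx1* calls between MGE and CGE and between MGE and LGE were lost too. Counting any pair, 4 of the 9 genes ranged over 10 points or more, beside 30.0% of the 767 covered genes. The 767 include genes that reached 20% in some lists only, which can raise their share of wide differences.

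The order of the regions was set beside that of the 767 covered genes. Those genes needed 20% coverage in only 1 list, and 412 reached it in all 4. CGE passed the most genes (687) and MGE the fewest (494), so the filter itself can favour CGE as highest and MGE as lowest. The order was not computed for the 412 alone, so whether the 9 differed from equally covered genes was not tested. MGE, the smallest list, was the highest for 6 of the 9 genes and LGE the lowest for 6, whereas among the covered genes MGE was highest for 16.2% and LGE lowest for 29.2%. CGE was highest for 2 of the 9 (50.7% of the covered genes), CTX was highest for 1 (22.9%), and CTX was lowest for the other 3 (24.8%). Not 1 of the 9 was lowest in MGE (40.0%) or CGE (5.48%) or highest in LGE (10.0%). This order changed when peaks were joined. With gaps of up to 1247 bases closed, MGE was highest for 5 genes and CGE for 3, LGE lowest for 5 and MGE for 1 (*Tlx3*). With peaks under 3 kb apart joined, CGE was highest for 6 genes and MGE for 3, LGE lowest for 5 and MGE for 2 (*Tlx3* and *Barx1*). The margin of MGE over the next list was under 1 point for *Hmx1*, *Hmx2*, *Hmx3* and *Barhl1*. For 5 of the 6 genes lowest in LGE the difference to MGE was at most 5.72 points, *Tlx1* being the exception. Over the 9 genes the median of MGE minus LGE was 4.90 points, and over the covered genes it was −0.328. LGE had 21 breaks between peaks inside the 9 windows, against 16 in MGE, 16 in CGE and 15 in CTX, counting a break once for each window it lies in. Of the LGE breaks, 7 fell where at least 1 other list was covered throughout, 5 of them where all 3 others were, and 6 of the 7 were no longer than 1247 bases. LGE was also the list with the smallest joining gap, 1119 bases, and its part in the order was not tested beyond closing the gaps. After closing, the LGE value of *Hmx2* was 53.7% and of *Hmx3* 59.3%, with ranges of 0.335 and 0.363 points over the 4 lists. *Tlx1* (55.6% against 57.4% to 70.7%) and *Lbx1* (63.3% against 68.2% to 69.0%) stayed lowest in LGE after closing.

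The covered bases were largely the same in the 4 regions. Of the bases covered in any list, the share covered in all 4 was 86.7% for the median gene of the 9, and 67.9% for the median of the 767 covered genes. Only 412 of these 767 reached 20% coverage in all 4 lists, as all 9 genes did. The others reached it in some lists only, and their share can be low for that reason. The share was not computed for the 412 alone, so whether the 9 were more constant than equally covered genes was not tested. Among the 9, the share was lowest for *Barhl1* (59.9%), *Tlx1* (70.6%) and *Barhl2* (74.1%). Peak edges also recurred. When each edge in these windows was compared with each of the other 3 lists in turn, between 38.3% (LGE) and 45.5% (CTX) of the comparisons found an edge within 50 bases, against 30.0% to 34.0% for all peaks of at least 5 kb and 17.6% to 21.5% for all peaks. The background peaks were not limited to places covered in all 4 lists, as the 9 windows were. Whether edges recurred more than at equally covered genes was therefore not tested.

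In sequence, the starts of the genes were mostly CpG-rich. The CpG observed over expected ratio in the 500 bases on either side of the 5′ end was 0.879 for the median gene of the 9 and 0.558 for the median of all protein-coding genes. It ran from 0.631 (*Tlx1*) to 1.07 (*Barhl2*) in 8 of the genes, and *Hmx2* stood apart at 0.158. *Tlx1* and *Barhl1* (0.643) were near the middle of all protein-coding genes, at percentiles 56.9 and 58.2, and *Hmx2* was at 16.9. A second annotated start of *Hmx2*, 5288 bases downstream and under a peak in all 4 lists, was not measured. Bases of the windows covered in all 4 lists held 36.6 CpG per 1000 bases, those covered in 1 to 3 lists 25.7 and those covered in none 15.2. The 412 genes covered in all 4 lists had 36.2 in the bases covered in all 4 lists and 24.6 in those covered in 1 to 3, close to the values of the 9 genes. Among the 9, *Lbx1* had nearly as many CpG in its uncovered bases (33.9 per 1000) as in the bases covered in all lists (34.8). *Hmx1* had more in the bases covered in 1 to 3 lists (53.6 per 1000), which include the CGE gap, than in those covered in all 4 (28.5).

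Relatives and genes of the same cell types were less covered, on the median, than the 9 genes. The window grows with the gene, so a domain of a given width fills a smaller percent of a longer gene's window. The 9 genes are 2059 (*Hmx3*) to 10623 bases (*Hmx1*) long, and gene length was not adjusted for. This applies to the comparison with all genes as well. Of 23 other homeobox genes of the NKL class, 15 had at least 20% of the window covered in all 4 lists, as had 1.89% of all genes, and the medians were 32.9% (MGE), 37.7% (CGE), 36.3% (LGE) and 35.9% (CTX). The most covered by mean were *En1* (65.6%) and *En2* (60.3%), of the midbrain and hindbrain, and *Msx1* (56.4%), and the least *Noto* (4.96%), *Barx2* (5.73%) and *Nanog* (6.51%). *Emx2*, a cortical regulator, ranged most, at 46.2% (MGE), 37.7% (CGE), 36.3% (LGE) and 19.3% (CTX). *Dbx1* ranged by 14.2 points and *Emx1* by 13.8. The paralogs of the genes fell well below them in this percent: *Tlx2* lay between 35.9% and 45.7%, *Lbx2* between 22.3% and 28.0%, and *Barx2* between 5.13% and 5.99%, although the 5′ end of *Barx2* was under a peak in all 4 lists. The widest peak at *Barx2* measured 4047 to 4153 bases, and its 2 kb upstream were wholly covered in all 4 lists. In width the paralogs were not always below. The widest peak at *Tlx2* measured 6714 (MGE), 10045 (CGE), 6696 (LGE) and 9245 bases (CTX). That was wider than at *Tlx1* in every list (6378, 6441, 3642 and 6180) and narrower than at *Tlx3*. *Lbx2* had 4887, 5201, 5202 and 5124 bases in the same order, against 4577, 7936, 4615 and 8100 at *Lbx1*.

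Of 24 transcription factor and receptor genes of sensory and hindbrain neurons, 15 were covered by at least 20% in all 4 lists, with medians of 25.3%, 27.5%, 25.2% and 29.5% in MGE, CGE, LGE and CTX. *Foxd3* (52.6% by mean), *Neurog1* (52.1%) and *Pou4f1* (45.7%) were the most covered, and the receptor genes *Ntrk3* (0.741%) and *Ret* (5.67%) and the transcriptional regulator *Eya1* (1.70%) the least. *Neurog1*, a proneural gene, ranged most and was lowest in CTX: 53.6%, 59.8%, 53.8% and 41.2%. *Lmx1b* ran the other way, from 26.1% in MGE to 44.2% in CTX, and *Isl1* ranged by 9.79 points.

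Among 12 genes in use in these tissues, the medians were 1.83%, 1.93%, 2.17% and 2.24%, and *Gapdh*, *Map2* and *Rpl4* had no covered base in any list. *Actb*, *Eef1a1* and *Dcx* had at most 1.24%, 1.14% and 0.405% in a list, and *Vim* and *Stmn2* at most 4.37% and 4.08%. *Tubb3* reached 7.35% and *Nes* 14.4%. The progenitor genes *Sox2* (32.3% to 40.0%) and *Hes5* (14.7% to 28.0%) were the exceptions, and the highest value of *Sox2*, in MGE, was above the CTX value of *Barhl1*.

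**Figure D5:**
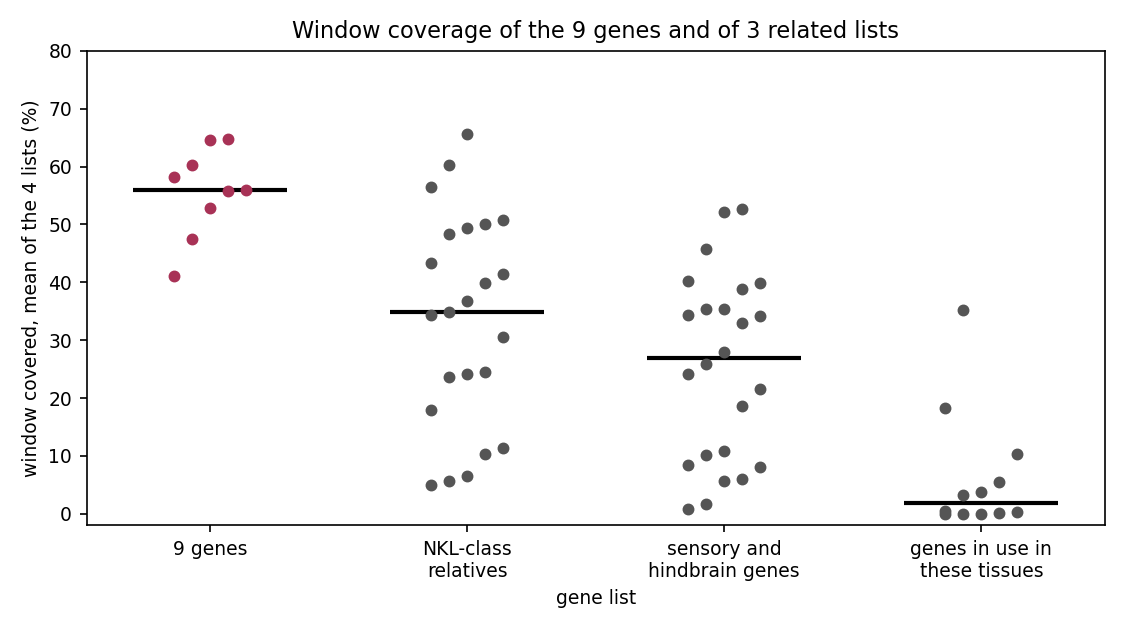
Mean percent of the window covered over the 4 lists, 1 point per gene, for the 9 genes, 23 NKL-class relatives, 24 genes of sensory and hindbrain neurons and 12 genes in use, with each group's median as a line. The medians stand at 55.9%, 34.8%, 26.8% and 1.88%.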

How the data were processed

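Nuclei of microdissected MGE, CGE, LGE and CTX were profiled for H3K27me3 by CUT&Tag. Per the labels and the study's methods, the authors aligned reads to GRCm38 (mm10) with Bowtie2, removed duplicates with Picard, merged the samples of a region with SAMtools and called broad peaks with MACS, whose version and control are not given in the sources used here. The protocol in the labels also speaks of pooling equal numbers of nuclei of the regions, although each sample carries 1 region, and the lists were taken as labelled. The deposited lists give each peak a score, a fold enrichment (ratio to background), a −log10 p-value and a −log10 q-value. The score and the p-value were not used, and the highest q was 0.0994. No interval from counting is given, since peaks come without read counts. Per the study's methods the reads were most in CGE, then CTX, LGE and MGE, the order of the list sizes, and the effect of depth was not tested beyond lists cut to equal size.

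Gene positions came from GENCODE M21. Windows were the gene body and 10 kb on either side, on chromosomes 1 to 19 and X. Python 3.11.15, numpy 2.4.6, pysam 0.24.0 and matplotlib 3.10.9 were used, and the coverage code was tested on simulated data. Calls were 20% coverage, a 5′ end inside a peak, a peak of 5 kb and a difference of 10 points. Alternatives were q under 0.001, joining of peaks under 3 kb apart, lists cut to 1 length or to 1 number of covered bases, other windows, lower thresholds, any transcript start and, added after the data were seen, 1 joining distance of 1247 bases for all lists. The genes and lists were chosen with earlier results of these data known. Of related lists, the 3 most covered, the 3 least covered and up to 3 most variable genes were named, with all label-check genes, those in-use genes with a covered base, the 3 genes nearest to *Tlx1* and every gene starting in a window or domain of the 9. *Drgx* was matched as *Prrxl1*. Paralogs *Tlx2*, *Lbx2* and *Barx2* and the genes in use at 0 were named after their values were seen. Protein sequences were not used here.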

Additional observations from a re-analysis of the deposited data

How the results depend on the processing

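The lists were merged before peaks were called, so no sample could be left out, and small differences between lists have no error. No paired analysis was possible because each region had 1 merged list and the columns carried no replicate numbers. All 9 genes stayed at 20% or more in all 4 lists with q under 0.001, equal length, equal covered bases and either joining. Over 2 kb upstream alone only 8 did in each list. The exception was *Tlx1*, with 18.9% (MGE), 15.1% (CGE), 3.10% (LGE) and 11.3% (CTX) covered there. Equal length moved none of the summary values. The medians for MGE, CGE, LGE and CTX were 91.6%, 88.3%, 82.0% and 86.3% over the gene body alone, 34.2%, 32.8%, 30.2% and 32.6% with 20 kb flanks, 100% over 2 kb upstream, and, with peaks under 3 kb apart joined, 67.1% in MGE, 68.8% in CGE and 67.4% in LGE. Genes under a domain of 5 kb numbered 5 in CGE and 5 in CTX over the body alone. The counts of genes differing by 10 points were the least stable. With peaks under 3 kb apart joined they were 0 for MGE and CGE, MGE and LGE, and CGE and LGE, and 2 for CGE and CTX. With 1 joining distance they were 2 for MGE and CGE, 2 for MGE and LGE, and 0 for CGE and LGE and for LGE and CTX. With equal covered bases they were 0 for CGE and LGE and for CGE and CTX, and with q under 0.001 1 for MGE and CTX (*Barhl1* lost). Over the body alone they were 2 for MGE and LGE, 1 for MGE and CTX, 3 for CGE and LGE, 2 for CGE and CTX, and 1 for LGE and CTX. With 20 kb flanks they were 0 for every pair but MGE and LGE. Over 2 kb upstream they were 0 for MGE and CGE and 1 each for MGE and CTX and for LGE and CTX. At 5 points they were 3 for MGE and CGE, 4 for MGE and LGE, 4 for MGE and CTX, 4 for CGE and LGE, and 5 for LGE and CTX. Apart from the joining settings, whose construction closes gaps, the cause was not tested.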

Other observations

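The 10 genes with a 5′ end bare in CTX and covered in MGE, CGE and LGE, among the 412 covered by at least 20% in all 4 lists, are named here after their values were seen. Besides *Barhl1* they were *Pax6*, *Six3*, *Sox1*, *Isl2*, *Tfap2c*, *Scarf2*, *Tmem59l*, *Phospho1* and *Ndufa4l2*. *Pax6*, a regulator of cortical progenitors, was covered by 49.5% (MGE), 33.2% (CGE), 28.8% (LGE) and 24.4% (CTX). *Tfap2c*, which encodes an AP-2 transcription factor, stood at 36.5%, 31.3%, 27.5% and 20.3% in the same order. *Barhl1*, *Isl2*, *Pax6*, *Scarf2*, *Six3*, *Tfap2c* and *Tmem59l* were lowest in CTX over the whole window. *Sox1*, a progenitor gene, was highest there, at 48.1% against 35.2% in MGE.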
